A study of Mus musculus with 6 samples.

Results

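Homeostatic chemokines and stromal survival cytokines are the genes by which connective tissue attracts and feeds resident immune cells. The set comprised 9 mouse genes listed by name and matched by Entrez gene identifier: Ccl19, Ccl21a, Ccl11, Cxcl12, Cxcl13, Cxcl14, Il15, Il7 and Il34. Of these 9 genes, 7 had a row among the 19267 genes of the authors' deposited table. Probes on both array designs were found for 8 of the 9, with 11 probes in all, out of 23044 genes measured on both designs. Ccl21a was not analysed here.

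RNA came from sorted cells of mice carrying an SMA-GFP transgene, in which green fluorescent protein reports the activity of the smooth muscle actin gene. Cells negative for the hematopoietic surface protein CD45 and the endothelial surface protein CD31 were taken from both tissues. The wound group was the population with the highest reporter signal (SMA+++) in wounds 7 days after injury, labelled myofibroblast, and the skin group was the population with low reporter signal (SMA+) in dermis, labelled fibroblast-like cells. Each group had 3 arrays of Cy3-labelled RNA, 2 of Agilent design 026655 (replicates 1 and 2) and 1 of design 028005 (called replicate 3 here). Both groups carried the transgene, and neither strongly reporting skin cells nor weakly reporting wound cells were measured, so injury and reporter level cannot be told apart. The labels do not say whether arrays of a group came from separate animals, and p-values then measure only the spread between these arrays.

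In lymphoid organs, fibroblastic stroma makes CCL19 and CCL21, which guide T cells and dendritic cells through the receptor CCR7, and CXCL13, which guides B cells through CXCR5. The same kind of stroma supplies survival cytokines: IL-7 to T cells and innate lymphoid cells, and IL-15 to natural killer and memory CD8+ T cells. In skin, CCL11 recruits eosinophils through CCR3, CXCL12 acts on CXCR4, CXCL14 is made constitutively, and IL-34 acts on the receptor CSF1R, which Langerhans cells need. Atypical chemokine receptors bind chemokines without the usual signalling and remove them from tissue.

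Levels are log2 signals relative to the 75th percentile of each array's probes, so that 1 unit is a 2-fold step and 0 is the 75th percentile. Levels of different probes were compared to choose a gene's brightest probe, to test 2 probes of a gene, and in summed marker levels. They are not read as relative amounts of RNA of different genes. Differences are wound minus skin, estimated with limma across 16661 genes with the array design as a term, with p-values adjusted over all of them and a call at an adjusted p under 0.05. All 8 measured members were among the genes tested. With the probe brightest on average for each, 6 fell in wound cells (Ccl19, Cxcl13, Ccl11, Cxcl14, Il15 and Il7), 0 rose, and 2 (Cxcl12 and Il34) did not pass. A second probe of Cxcl12 was higher in wound cells, as given below. Across all genes tested, 34.1% were called, 18.5% higher and 15.5% lower in wound cells. The median difference of the 8 members was -1.68, against 0.05 over all genes tested. The members were chosen with earlier results of these data known, so contrasts with all genes only describe them. For 5 members (Ccl19, Cxcl13, Ccl11, Il15 and Il7) every wound array lay below every skin array, against 8.46% of all genes tested. Cxcl13 and Il7 entered the test through the skin arrays alone, being well above background on 0 and 1 of 3 wound arrays. Their lower wound values were thus partly set by the filter, and the counts and the median include them.

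The arrays had 64.4% to 72.6% of their spots well above background and 0 saturated spots, and their number limits the precision. Acta2, the gene of smooth muscle actin, was higher in the wound cells by 4.70 ± 0.16 (SE; adjusted p = 5.13e-05), as its reporter gate sets. Of 9 fibroblast markers, 1 fell (Pdgfra, -1.30) and 0 rose, and their summed level was 1143 to 3754 in wound cells and 1318 to 4472 in skin cells, in multiples of the 75th percentile. Of 10 keratinocyte markers, 9 fell in wound cells, with a summed level of 4.38 to 10.3 in wound cells and 18.2 to 39.9 in skin cells. Krt1 and Cdh1 were well above background on 0 of 3 wound arrays, Epcam and Dsp on 1 and Krt15 on 2. All of these named markers entered the test through the skin arrays alone, so their lower wound values were partly set by the filter. The count of markers that fell includes them. Most of the sum in wound cells was Trp63, the marker that did not pass, at levels of 1.77 to 2.99. The 9 markers that fell moved with the members that fell, and their part in those results was not tested. Of 10 markers of mural cells, 7 rose and 0 fell, with a summed level of 88.8 to 235 in wound cells and 33.6 to 66.9 in skin cells. Of 9 endothelial markers tested 4 rose and 1 fell, and of 6 Schwann cell markers 4 fell. Emcn, an endothelial marker that rose, was well above background on 1 of 3 skin arrays and entered the test through the wound arrays alone. Of 16 leukocyte markers 10 could be tested, and 1 fell (Csf1r) and 0 rose. Their summed level was 23.4 to 105 in wound cells and 23.7 to 120 in skin cells. Most of that sum was 1 gene, Itgam, at levels of 4.22 to 6.52 in wound cells and 4.18 to 6.64 in skin cells. In both groups the highest Itgam level was on design 028005. The ranges of summed levels given here pool both array designs, so their width includes the difference between designs. Ptprc, the gene of CD45, was well above background on 1 of 3 wound arrays and 3 of 3 skin arrays. In such sorted bulk samples, fewer cells of a type and less RNA per cell cannot be told apart.

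**Figure D1:**
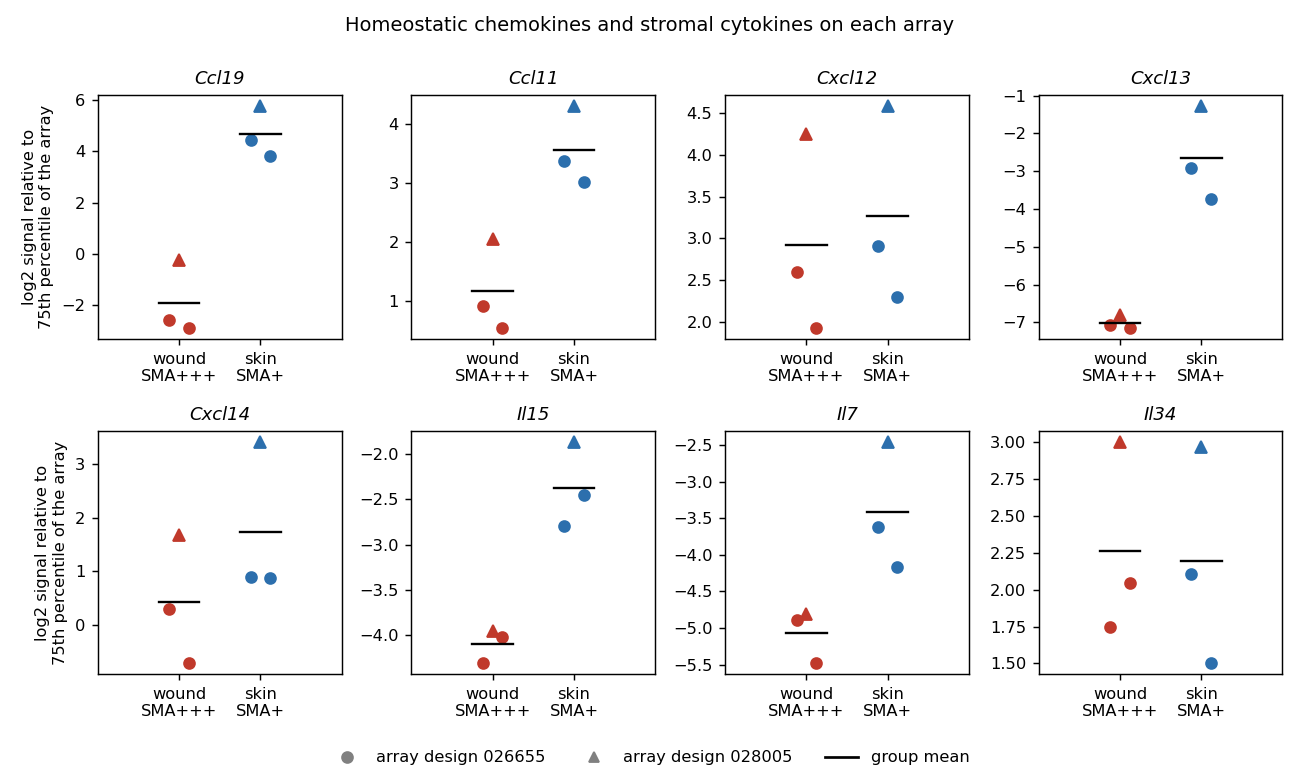
Level of each measured member on each array, as log2 signal relative to the array's 75th percentile (vertical axes, each gene with its own range), for wound SMA+++ and skin SMA+ cells; circles are arrays of design 026655, triangles arrays of design 028005, and lines group means. Ccl19 lay between -2.88 and -0.23 in wound cells and between 3.80 and 5.75 in skin cells, while the groups overlapped for Cxcl12, Cxcl14 and Il34.

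The promoters of the chemokines from which lymphoid stroma is known are shown first, because Ccl19 and Cxcl13 fell together while Cxcl12, another chemokine of that stroma, did not pass the test with its brightest probe. In lymphoid stroma both Ccl19 and Cxcl13 are known targets of the noncanonical NF-kB pathway below the lymphotoxin beta receptor. The pathway is not read here as setting them apart from Cxcl12, and the response of these genes to it was not tested. Of the 9 genes, 5 had a promoter window in the RefSeq table (build GRCm38.p6), running from position -250 to position 50 around the gene's start. Each is printed 5′ to 3′ on the gene's strand, with any match to the NF-kB letters, on either strand, in capitals. These letters are GGG and CC with any 5 bases between them. They are a loose pattern: capitals do not mark a known binding site, and sites with other letters stay in lower case.
Ccl19, chr4:42756316-42756615, minus strand: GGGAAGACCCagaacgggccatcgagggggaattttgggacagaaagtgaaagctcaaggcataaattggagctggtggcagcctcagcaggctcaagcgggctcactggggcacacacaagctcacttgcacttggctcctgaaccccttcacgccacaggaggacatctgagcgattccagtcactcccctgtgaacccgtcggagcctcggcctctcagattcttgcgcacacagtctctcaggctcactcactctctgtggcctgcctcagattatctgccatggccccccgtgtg
Cxcl13, chr5:95956689-95956988, plus strand: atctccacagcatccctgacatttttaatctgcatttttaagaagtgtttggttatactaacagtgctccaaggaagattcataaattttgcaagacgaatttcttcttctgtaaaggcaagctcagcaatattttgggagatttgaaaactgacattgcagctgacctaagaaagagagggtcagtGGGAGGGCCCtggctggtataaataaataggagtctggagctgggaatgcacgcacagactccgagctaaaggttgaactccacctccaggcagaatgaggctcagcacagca
Cxcl12, chr6:117168285-117168584, plus strand: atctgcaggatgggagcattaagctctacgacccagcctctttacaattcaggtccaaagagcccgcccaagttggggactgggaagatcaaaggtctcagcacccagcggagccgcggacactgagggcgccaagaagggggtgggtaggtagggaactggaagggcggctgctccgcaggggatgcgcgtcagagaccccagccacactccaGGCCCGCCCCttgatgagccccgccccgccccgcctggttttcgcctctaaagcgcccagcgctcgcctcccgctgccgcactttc
The match began at position -250 in Ccl19, at -63 in Cxcl13 and at -36 in Cxcl12, where it reads on the minus strand. The windows of Ccl21a and Cxcl14 held no such letters. A match was present in 50.8% of 32851 RefSeq promoter windows. A match to the letters TATAA, found on either strand in 24.9% of the windows, stood at positions -198 and -46 in Cxcl13, and in none of the other 4 windows. The hypoxia response core ACGTG, found in 19.6% of windows, was in none of the 5.

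Ccl19, which with CCL21 forms the pair of CCR7 ligands, was the member with the largest difference. Its brightest probe read -2.59, -2.88 and -0.23 on the 3 wound arrays, against 4.44, 3.80 and 5.75 on the 3 skin arrays. The groups were far apart, and the wound probe was still well above background on all 3 arrays. As signal before scaling, that was 125, 83.8 and 445 in wound cells and 15407, 10547 and 24642 in skin cells. The level averaged -1.90 ± 1.46 in wound cells and 4.66 ± 0.99 in skin cells (SD, n = 3 each). Ccl19 fell by 6.56 ± 0.27 (SE; limma, adjusted p = 6.59e-05), which is 94.6-fold lower in wound cells. With normexp correction the difference was -5.95, and with all probes averaged -5.84. Within array designs, its difference was -6.86 on design 026655 and -5.97 on design 028005. The other probes of Ccl19 gave -5.57 (adjusted p = 9.48e-05 over 25791 probes) and -5.38 (adjusted p = 8.41e-05), so that all 3 probes of the gene fell; 28.8% of all probes tested were called. Mouse Ccl19 has near-identical copies or pseudogenes elsewhere in the genome, and a probe may sum over them.

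Cxcl13, the ligand of the B cell receptor CXCR5, was well above background on every skin array and on no wound array. Its 1 probe read -7.07, -7.15 and -6.81 on the wound arrays, against -2.91, -3.73 and -1.29 on the skin arrays. The wound signals before scaling were 5.59, 4.36 and 4.63, not well above background, against 94.5, 57.1 and 188 in skin cells. Because the wound values were not well above background, the change was also computed against a floor. That floor was the lowest signal among probes well above background on each wound array, which was 11.1, 15.6 and 20.5. With it Cxcl13 was 6.55-fold lower in wound cells (limma on the measured values, adjusted p = 0.000521). This fold depends on how background is treated and is not a lower limit. The groups did not overlap on design 026655, while design 028005 had only 1 array per group. Cxcl13 entered the test through the skin arrays alone, so its lower wound values were partly set by the filter. With the normexp background correction, which compresses dim signals, the measured difference was -1.33 in place of -4.37.

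Ccl11, the eotaxin that recruits eosinophils through CCR3, fell less far but evenly. Its levels were 0.91, 0.54 and 2.05 on the wound arrays, against 3.37, 3.02 and 4.30 on the skin arrays. Every wound value lay below every skin value. The mean was 1.16 ± 0.79 in wound cells and 3.56 ± 0.66 in skin cells (SD, n = 3 each), and Ccl11 fell by 2.40 ± 0.18 (SE; limma, adjusted p = 0.00029), 5.27-fold lower in wound cells. The designs gave -2.47 (026655) and -2.24 (028005).

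Cxcl14, a chemokine that normal skin makes without inflammation, had levels of 0.30, -0.71 and 1.69 on the wound arrays, against 0.90, 0.88 and 3.42 on the skin arrays. The groups overlapped across designs, but within each design the wound values were the lower ones. Cxcl14 fell by 1.31 ± 0.30 (SE; limma, adjusted p = 0.0171), 2.48-fold lower in wound cells, with -1.10 on design 026655 and -1.73 on design 028005. The call ended without wound replicate 2 (adjusted p = 0.0501) and without either array of design 028005 (adjusted p = 0.0717). Keratinocytes also make CXCL14, and the 9 keratinocyte markers that fell with it are given above; their part in the result was not tested.

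Cxcl12, the ligand of CXCR4 and of the scavenger ACKR3, gave different answers with its 2 probes. The probe brightest on average, A_55_P1966204, read 2.60, 1.93 and 4.25 on the wound arrays, against 2.91, 2.30 and 4.58 on the skin arrays. On wound replicates 1 and 2 it was dimmer than the other probe. The groups overlapped across the designs, and the difference of -0.34 ± 0.25 (SE; limma, adjusted p = 0.341) did not pass, with a 95% interval of -0.94 to 0.27. The second probe, A_51_P172502, read 2.69, 2.44 and 3.82 on the wound arrays, against 1.55, 1.54 and 2.55 on the skin arrays. Within each design its wound values were all above its skin values, and it was higher in wound cells by 1.10 ± 0.16 (SE; limma over 25791 probes, adjusted p = 0.0037), 2.15-fold. The difference between the probes was itself tested, a comparison chosen after their values were seen. Over the 4185 genes with 2 or more probes well above background on all 6 arrays, where 5.02% were called, the brighter probe's log2 difference was 1.44 ± 0.22 below that of the second (SE; limma, adjusted p = 0.0279). The array annotation assigns the probes to different RefSeq transcripts of Cxcl12, but which transcripts each one detects was not tested. The same comparison for Ccl19, the other member with several probes, gave -1.18 ± 0.24 and did not pass (adjusted p = 0.0605).

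**Figure D2:**
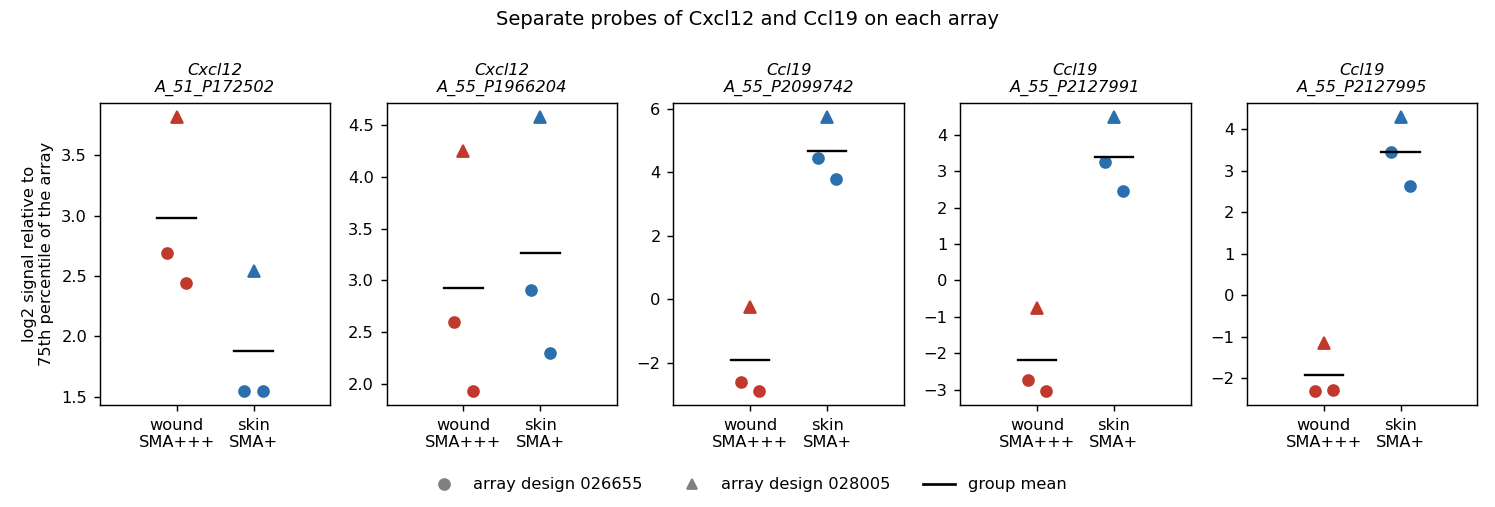
Level of the 3 probes of Ccl19 and the 2 probes of Cxcl12 on each array, as log2 signal relative to the array's 75th percentile, for wound SMA+++ and skin SMA+ cells; circles are arrays of design 026655, triangles arrays of design 028005, and lines group means. All 3 Ccl19 probes were lower in wound cells, whereas Cxcl12 was 1.10 higher with 1 probe and did not pass the test with the other (-0.34).

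The probes of both lymphocyte survival cytokines gave dim signals. Il15, which sustains natural killer cells and memory CD8+ T cells, had levels of -4.31, -4.02 and -3.95 on the wound arrays, against -2.80, -2.45 and -1.87 on the skin arrays. All wound values lay below all skin values, and the probe was well above background on all 6 arrays. Il15 fell by 1.72 ± 0.20 (SE; limma, adjusted p = 0.00123), 3.30-fold lower, with -1.54 on design 026655 and -2.08 on design 028005. With normexp correction the difference was -0.85 (adjusted p = 0.00323).

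Il7, the stromal cytokine that T cells and innate lymphoid cells depend on, had levels of -4.90, -5.48 and -4.81 on the wound arrays, against -3.62, -4.16 and -2.46 on the skin arrays. The groups did not overlap, but the probe was well above background on 1 of 3 wound arrays and on 3 of 3 skin arrays. The signals before scaling were 25.3, 13.8 and 18.6 in wound cells and 57.5, 42.2 and 83.6 in skin cells. The wound signals of replicates 2 and 3 lay below the dimmest signal that counted as well above background on those arrays (15.6 and 20.5). Il7 fell by 1.65 ± 0.30 (SE; limma, adjusted p = 0.00798) on the measured values, with -1.29 on design 026655 and -2.35 on design 028005. With normexp correction the difference was -0.57 (adjusted p = 0.0195).

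Il34, a second ligand of CSF1R beside CSF1, showed no difference that passed the test. Its levels were 1.75, 2.04 and 3.00 on the wound arrays, against 2.11, 1.50 and 2.97 on the skin arrays. The groups overlapped, also within design 026655. The difference was 0.07 ± 0.21 (SE; limma, adjusted p = 0.815), with a 95% interval of -0.43 to 0.57, and its sign turned to -0.037 with quantile normalization. Keratinocytes are the known epidermal source of IL-34, and 9 of 10 keratinocyte markers were lower in wound cells; their part in the Il34 value was not tested.

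**Figure D3:**
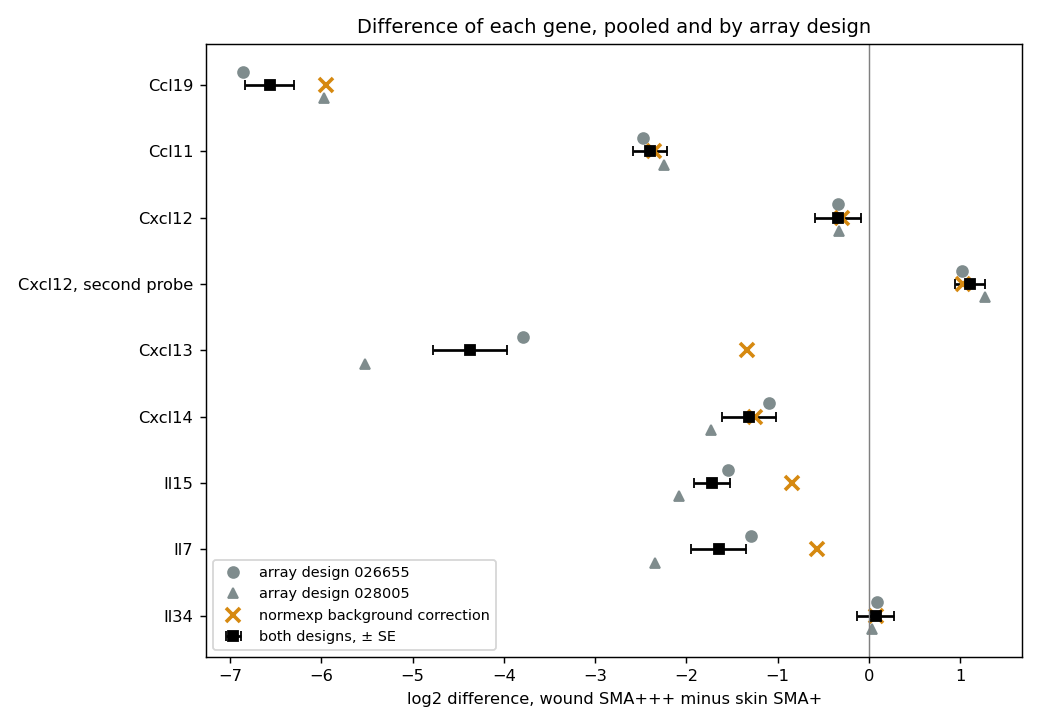
Log2 difference, wound SMA+++ minus skin SMA+, for each measured member and for the second Cxcl12 probe; squares with bars are the limma estimate over both array designs ± SE, circles and triangles the difference within designs 026655 and 028005, and crosses the estimate after normexp background correction. Both designs gave the same sign for every gene shown, and the normexp values of the dim genes Cxcl13 (-1.33), Il15 (-0.85) and Il7 (-0.57) lay nearer 0 than the values without it.

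Among the receptors and scavengers of these ligands, 17 were listed and 10 could be tested, of which 2 rose and 6 fell in wound cells, with a median difference of -1.56. Calls made up 80% of those tested, against 34.1% of all genes tested. The falls of Ackr4, Ackr2 and Ackr1, all atypical receptors, were the largest of the list. Ackr4, the scavenger of CCL19 and CCL21, read -4.78, -4.36 and -3.08 on the wound arrays, against 2.99, 2.78 and 3.55 on the skin arrays. These groups were as far apart as those of Ccl19, and Ackr4 fell by 7.18 ± 0.23 (SE; limma, adjusted p = 5.13e-05), 145-fold lower in wound cells. Ackr2, which scavenges inflammatory CC chemokines, CCL11 among them, fell by 5.49 ± 0.19 (adjusted p = 5.13e-05). Ackr1, a binder of many chemokines, fell by 5.04 ± 0.20 (adjusted p = 6.41e-05). With normexp correction the differences were -5.76 for Ackr4 and -4.17 for Ackr2, and with all probes averaged Ackr2 differed by -4.56. Keratinocyte markers fell alongside, as given above. Of 5 lymphatic endothelial markers 3 could be tested, and Lyve1 rose (2.27), Mmrn1 fell (-3.08) and Pdpn did not pass (0.28). Lyve1 was well above background on 1 of 3 skin arrays and Mmrn1 on 1 of 3 wound arrays. Each entered the test only through the group where it was higher, so both calls were partly set by the filter. The summed level of this list was 25.4 to 72.9 in wound cells and 18.1 to 65.9 in skin cells. Most of that sum was Pdpn, listed also among the lymphoid stroma genes, at levels of 4.66 to 6.18 in wound cells and 4.17 to 6.03 in skin cells. Of 4 melanocyte markers tested, Mlana (-3.06) and Mitf (-1.43) fell and 0 rose. The summed level of this list, most of it Mitf, was 2.39 to 5.55 in wound cells and 5.57 to 17.3 in skin cells. The part of these cell types in the values of the scavengers was not tested.

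The signalling receptors went both ways. Il2rg, the common gamma chain shared by the receptors of IL-7 and IL-15, read -0.17, -0.64 and 0.49 on the wound arrays, against -4.45, -4.00 and -3.73 on the skin arrays. It was higher in wound cells by 3.95 ± 0.22 (SE; limma, adjusted p = 0.000113), 15.5-fold, or by 2.67 with normexp correction, while its ligand genes Il7 and Il15 were lower. The partner chains were less clear: Il15ra did not pass (-0.19 ± 0.18, adjusted p = 0.468), and Il7r and Il2rb were too dim to be tested. Ccr7, the receptor of CCL19, was dim but higher in wound cells by 1.59 ± 0.26 (adjusted p = 0.00481), or by 0.53 with normexp correction. Because the cells were sorted as CD45 negative, the leukocyte marker values given above stand beside the 2 receptors that rose, and the part of leukocytes in their values was not tested.

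Cxcr4, the signalling receptor of CXCL12, read -4.81, -4.64 and -1.76 on the wound arrays, against -1.99, -1.50 and -1.18 on the skin arrays. It fell by 2.18 ± 0.49 (SE; limma, adjusted p = 0.0166), with a difference of -2.98 on design 026655 and of -0.58 on design 028005, and of -1.26 with normexp correction. The call ended when any 1 of the 4 arrays of design 026655 was left out (adjusted p = 0.0517 to 0.0647). Another atypical receptor, Ackr3, the scavenger of CXCL12, did not pass (0.54 ± 0.26, adjusted p = 0.158). Of the IL-34 receptors, Ptprz1 fell by 2.22 ± 0.19 (adjusted p = 0.000427) and Csf1r fell by 0.93 ± 0.21 (adjusted p = 0.0183), a call that ended without wound replicate 2 (adjusted p = 0.0562), without skin replicate 1 (adjusted p = 0.0669) or without either array of design 028005 (adjusted p = 0.0506). Ptprz1 differed by -1.48 with normexp correction and by -1.43 with all probes averaged. The leukocyte receptors Ccr2, Ccr3, Cxcr3 and Cxcr5 were too dim to be tested.

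The other homeostatic chemokines and niche cytokines moved in both directions. Of 18 listed, 13 could be tested, and 6 rose and 2 fell in wound cells, with a median difference of 0.33 (61.5% called, against 34.1% of all genes tested). Tslp, an IL-7-like cytokine, read 1.21, 1.23 and 1.90 on the wound arrays, against -4.55, -3.51 and -2.72 on the skin arrays. It was higher in wound cells by 5.04 ± 0.30 (SE; limma, adjusted p = 0.000132), 32.9-fold, or by 3.79 with normexp correction, the opposite direction to Il7. Tnfsf11, which encodes RANKL, was higher by 4.30 ± 0.24 (adjusted p = 0.000116), with its probe well above background on 1 of 3 skin arrays, or by 1.95 with normexp correction. Tnfsf11 thus entered the test through the wound arrays alone, and its lower skin values were partly set by the filter. Cxcl16, a ligand of CXCR6, was higher by 3.04 ± 0.16 (adjusted p = 9.78e-05). Flt3l, a growth factor of dendritic cells, read -1.22, -1.50 and -0.50 on the wound arrays, against 3.12, 2.23 and 3.94 on the skin arrays, and fell by 4.17 ± 0.27 (adjusted p = 0.000156). Ccl27a, a skin chemokine made by keratinocytes, fell by 1.66 ± 0.18 (adjusted p = 0.00102) beside the fall of the keratinocyte markers, whose part was not tested. Ccl27a also has near-identical copies in the mouse genome.

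Of 16 listed genes of lymphotoxin and noncanonical NF-kB signalling, the pathway named above for Ccl19 and Cxcl13, 14 could be tested, and 3 rose, 2 fell and 9 did not pass. The share called, 35.7%, was near the 34.1% of all genes tested. Map3k14, which encodes the central kinase NIK, fell by 1.65 ± 0.15 (SE; limma, adjusted p = 0.000492), and Birc3, an inhibitor of apoptosis that takes part in NIK turnover, fell by 1.36 ± 0.20 (adjusted p = 0.00347). Ltb, a lymphotoxin subunit, was higher by 0.96 ± 0.25 (adjusted p = 0.0263), Relb, a noncanonical NF-kB subunit, by 0.73 ± 0.18 (adjusted p = 0.0251), and Traf3, an adaptor that restrains NIK, by 0.61 ± 0.17 (adjusted p = 0.0321). Each of these 3 calls ended when single arrays were left out, with adjusted p up to 0.0958 for Ltb, 0.0852 for Relb and 0.135 for Traf3. The Ltb call also ended with normexp correction (0.39, adjusted p = 0.108), and the Relb call with all probes averaged (0.46, adjusted p = 0.0964) and in the authors' deposited table (0.40, adjusted p = 0.134). The Traf3 call ended with quantile normalization (0.46, adjusted p = 0.0951), when only detected probes set the 75th percentile (0.54, adjusted p = 0.0595) and in the authors' deposited table (0.55, adjusted p = 0.0546). All 3 calls also ended with no filter on dim probes (adjusted p = 0.0626 to 0.0758).

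Genes known from lymphoid stroma were divided. Of 15 listed, 14 could be tested, and 5 rose and 6 fell in wound cells, with a median difference of 0.29 (78.6% called, against 34.1% of all genes tested). Enpp2, which encodes the lysophosphatidic acid producing enzyme autotaxin, fell by 4.38 ± 0.22 (SE; limma, adjusted p = 8.91e-05), 20.9-fold lower. Dll1, a Notch ligand, fell by 3.34 ± 0.31 (adjusted p = 0.000528), and Fcgr2b, an Fc receptor of follicular dendritic cells, fell by 2.33 ± 0.14 (adjusted p = 0.000127). With normexp correction the differences were -2.51 for Dll1 and -1.44 for Fcgr2b, and with all probes averaged Dll1 differed by -1.92. Among those that were higher, besides Tnfsf11, Mfge8 stood at 1.21 ± 0.19 (adjusted p = 0.00422) and the adhesion molecule gene Vcam1 at 1.07 ± 0.24 (adjusted p = 0.0165). The Vcam1 call ended without wound replicate 2 (adjusted p = 0.051), without skin replicate 2 (adjusted p = 0.0524) or without either array of design 028005 (adjusted p = 0.0701).

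Proteases that can cleave chemokines were mostly higher in wound cells. Of 13 listed, 10 could be tested, and 7 rose and 1 fell, with a median difference of 1.03 (80% called, against 34.1% of all genes tested). Mmp9, a gelatinase, was not well above background on any skin array. It was higher in wound cells (limma on the measured values, adjusted p = 5.13e-05). Mmp9 entered the test through the wound arrays alone, so its lower skin values were partly set by the filter, and the count includes it. Against the lowest signal well above background on each skin array it was 55.7-fold higher, while the difference after normexp correction was 3.52. This fold depends on how background is treated and is not a lower limit. Mmp13, a collagenase, was higher by 6.01 ± 0.19 (adjusted p = 5.13e-05), or by 4.78 with normexp correction, and Plau, the urokinase gene, by 3.38 ± 0.26 (adjusted p = 0.000299). Dpp4, whose product trims the amino end of CXCL12 and CCL11, read -0.53, -0.56 and 0.04 on the wound arrays, against 1.62, 1.29 and 1.95 on the skin arrays. It fell by 1.97 ± 0.16 (adjusted p = 0.000312), 3.93-fold lower in wound cells.

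Of 12 upstream receptors and transcription factors, all tested, 6 rose and 2 fell, with a median difference of 0.44 (66.7% called, against 34.1% of all genes tested). Foxc1 and Ebf3, transcription factors that bone marrow stroma rich in CXCL12 depends on, were higher by 2.88 ± 0.18 (SE; limma, adjusted p = 0.000142) and 3.87 ± 0.22 (adjusted p = 0.000119), while the Cxcl12 probes differed as described. Foxc1 was higher by 1.60 with normexp correction. Hif1a, the hypoxia factor subunit, was higher by 1.41 ± 0.15 (adjusted p = 0.000968). Irf1, an interferon-induced factor known to act on Il15 and Il7, fell by 1.42 ± 0.17 (adjusted p = 0.00151), and Ifngr1, the ligand-binding chain of the interferon gamma receptor, fell by 1.41 ± 0.20 (adjusted p = 0.00257). Counted once each, the 6 lists held 89 genes, of which 71 were tested, 27 higher and 19 lower in wound cells (64.8% called, against 34.1% of all genes). The lists too were chosen with earlier results of these data known, so this contrast only describes them.

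**Figure D4:**
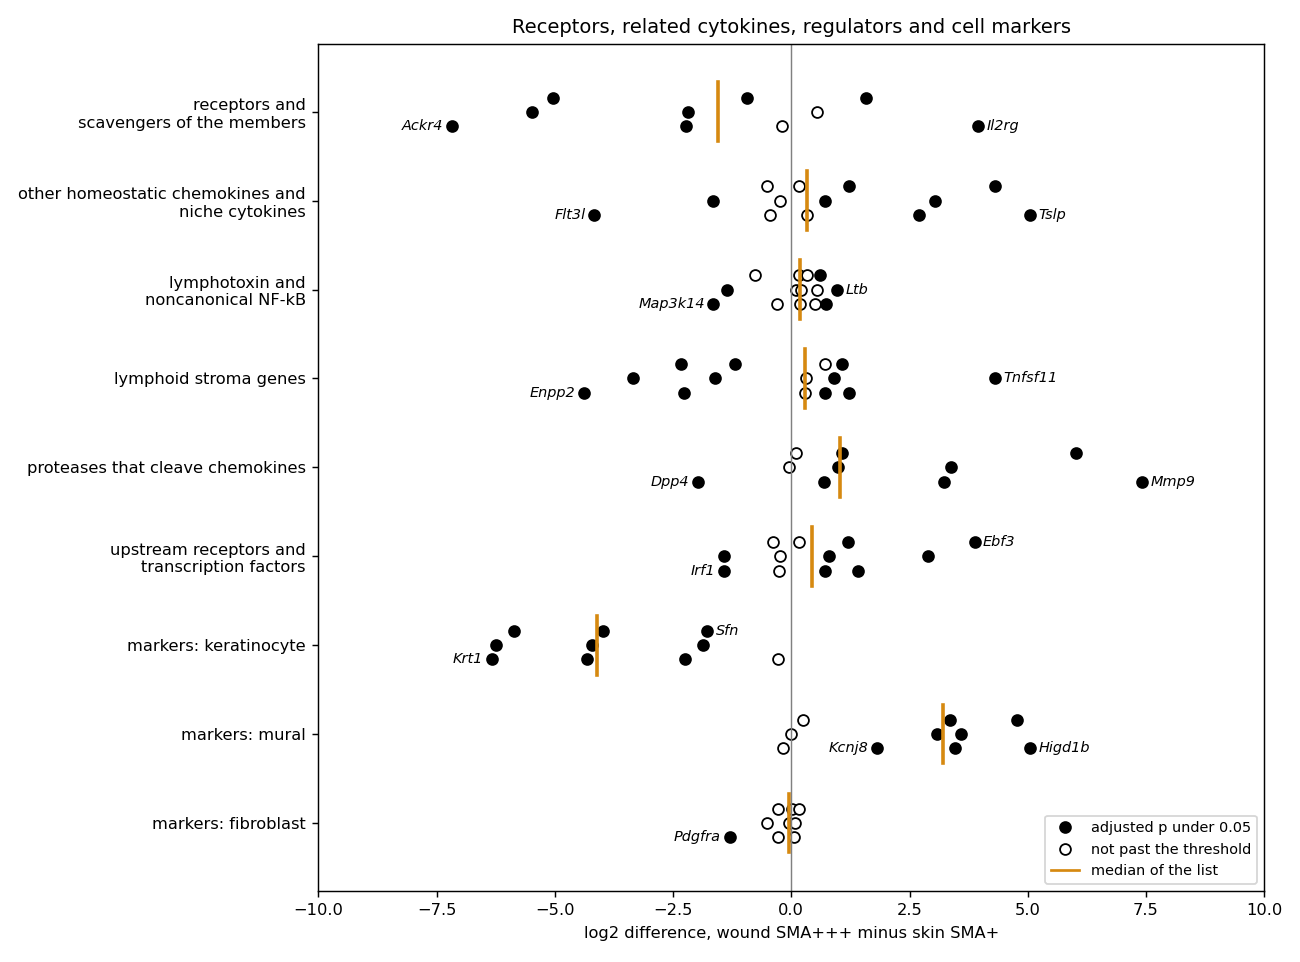
Log2 difference, wound SMA+++ minus skin SMA+, of the tested genes in 6 lists around the members and in 3 lists of cell type markers; each point is a gene, filled where the adjusted p was under 0.05, and bars are list medians, with the genes called at the lowest and highest difference named. The list medians ran from -1.56 for receptors and scavengers to 1.03 for proteases, beside -4.10 for keratinocyte, 3.22 for mural and -0.05 for fibroblast markers.

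The genes whose pattern over the 6 arrays lay closest to that of Ccl19, by Euclidean distance of levels centred within array design among 15772 genes, were Pcolce2, Galnt15 and Myoc. Pcolce2, an enhancer of procollagen processing, was at a distance of 0.35 and fell by 6.51. Galnt15, a glycosyltransferase gene, was at 0.522 and fell by 6.20. Myoc, the myocilin gene, was at 0.523 and fell by 6.25.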

How the data were processed

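RNA of 3 wound and 3 skin samples was measured on 1-colour Agilent arrays, each array design being 1 slide and 1 scan. The scanner files hold processed intensity, background-corrected with Agilent Feature Extraction 10.7.3.1, per the file headers. The authors' deposited table holds 1 log2 value per gene, made with GeneSpring 14.5 per the labels. Set against the scanner values it was on the same log2 scale with each gene centred (column medians -0.28 to -0.21); its centring rule and its combination of probes are not known.

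From the scanner files, log2 processed signal minus each array's 75th percentile was computed without control and outlier spots, averaged over spots of a probe. The brightest probe stood for a gene in each design. Genes with signal well above background in every sample of 1 group or of both were tested with limma 3.58.1 in R 4.3.3 (design as a term, Benjamini-Hochberg adjustment). Probes were named through the authors' table or RefSeq accessions (30621 of 39429 probes on design 026655, 30647 of 55680 on 028005). The normexp alternative used the median signal, because the files hold no mean signal. Scripts were tested on simulated data. Members and lists were chosen with earlier results of these data known. Named are all members, up to 3 called genes per list and direction, receptors of members (1 listed gene is not reported here), and the 3 genes nearest the member with the largest difference.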

Additional observations from a re-analysis of the deposited data

How the results depend on the processing

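Ccl19, Ccl11 and Cxcl13 kept their direction and their call under every alternative that gave them a value: normexp correction, the 75th percentile taken over detected probes, quantile normalization, all probes averaged, the authors' table, other filters on dim probes, no design term, a threshold of 0.01 and each array left out (-6.86 to -6.30, -2.48 to -2.27 and -4.77 to -3.79). Without the design term, 3 members were called lower in place of 6: Cxcl14 (-1.31, adjusted p = 0.229), Il15 (-1.72, adjusted p = 0.0531) and Il7 (-1.65, adjusted p = 0.0726) were lost, as was the second Cxcl12 probe (1.10, adjusted p = 0.433). Companion genes numbered 11 higher and 11 lower there, in place of 27 and 19. Cxcl14 (-1.31) also missed the threshold of 0.01. Cxcl12 turned to 0.38 with all probes averaged and to 0.32 in the authors' table, neither past the threshold (adjusted p = 0.171 and 0.273); Il34 turned to -0.037 with quantile normalization, to -0.018 without wound replicate 2 and to -0.11 without skin replicate 2. With each array left out, values ran from -0.53 to -0.14 for Cxcl12, 1.02 to 1.20 for its second probe, -1.66 to -1.08 for Cxcl14, -1.87 to -1.54 for Il15, -1.91 to -1.29 for Il7 and -0.11 to 0.24 for Il34, with 5 to 6 members lower and 0 higher, 17 to 19 companion genes lower and 20 to 23 higher. Of 539 values of 34 named companion genes, 486 kept call and direction, 53 missed the threshold and 0 turned. All called genes were 3089 higher and 2588 lower, against 845 and 895 without the design term and 2018 and 1726 without skin replicate 1. The cause of these shifts was not tested. The labels number only 2 pairs of arrays and do not say what a shared number marks, so the numbers were not taken as pairs. Across genes, deviations from the group means correlated at 0.336 and 0.186 for replicates 1 and 2 and at 0.366 for the arrays of design 028005, which all include the array design. Within design 026655 the change between replicates 1 and 2 correlated at 0.153. With the replicate block, 6 members were still lower (Ccl19 -6.56, adjusted p = 0.000445), 27 companion genes were higher and 19 lower, and no call of a member or named companion gene changed. Cxcl13 and Il7 gave no value under the filter for all 6 arrays, nor Cxcl13 in the authors' table. Signals near background limit Cxcl13, Il7 and Il15 most.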

Other observations

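Tslp and Il7, both cytokines whose receptors contain the IL-7 receptor alpha chain, differed in opposite directions between the same sorted populations: Tslp by 5.04 and Il7 by -1.65 (limma, adjusted p = 0.000132 and 0.00798). Cxcr4 differed by -2.98 on array design 026655 and by -0.58 on design 028005, and its level on the wound array of design 028005, -1.76, lay within the range of the skin arrays. Both are values with no explanation tested.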
